A study of Mus musculus with 40 samples.

Results

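The genes described here are the tumour necrosis factor (TNF) ligands and receptors that carry a Tnfsf or Tnfrsf symbol, followed in 40 arrays of mouse J558LuM cells. They were chosen by name: every probe set (the group of short probes that measures a transcript) whose annotation gives a single gene symbol beginning with Tnfrsf or Tnfsf, with the brightest probe set standing for each gene. This gave 28 genes of the 17097 measured, namely 19 receptors, 8 ligands and the antisense transcript Tnfsf13os, from 48 probe sets. J558LuM is a mouse plasmacytoma line, a tumour of antibody-secreting cells that lacks its own PAX5. Cells received an empty vector named MIR, the wild-type protein (PAX5-WT), PAX5-P80R, PAX5-Δ2-6, PAX5-G183V or PAX5-G183S. PAX5 is a DNA-binding protein that commits cells to the B lineage. The labels spell out no more of the altered constructs than their names. By general knowledge, P80 lies in the paired DNA-binding domain and G183 in the octapeptide that binds co-repressors. There were 6 arrays each for PAX5-P80R and PAX5-Δ2-6 and 7 for every other group, and all arrays share the 1 cell line. Each array carries its own transduction number, so the p-values reflect spread among transductions of a single line. In such bulk RNA, fewer cells that express a gene and less RNA per cell cannot be told apart.

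Ligands of this family are trimeric proteins, mostly anchored in the membrane, and they act by drawing receptors together. Receptors without a death domain pass the signal through TRAF adaptors to the NF-kB transcription factors, while receptors with a death domain can recruit caspases. In the B lineage 3 of the receptors divide the work by stage: BAFF-R (Tnfrsf13c) keeps mature B cells alive, TACI (Tnfrsf13b) restrains and directs their activation, and BCMA (Tnfrsf17) supports long-lived plasma cells. Their ligands BAFF (Tnfsf13b) and APRIL (Tnfsf13) come mainly from other cells.

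Values are log2 signals, so a difference of 1 is a doubling of the signal, and the level of 1 gene cannot be set against that of another. The arrays had medians between 4.21 and 4.27. The labels name 2 RNA isolation batches and 2 plates, and both were terms in the fit. PAX5-P80R and PAX5-Δ2-6 were on plate 2 alone. Within each isolation batch the transduction numbers part the groups. In batch 1 the numbers were 34 to 44 for MIR, PAX5-WT and PAX5-G183S and 1 to 9 for the other groups. In batch 2, MIR and PAX5-WT held the numbers 58 to 63 and PAX5-G183S 45 to 66, against 46 to 57 for PAX5-G183V, PAX5-P80R and PAX5-Δ2-6. Comparisons of the last 3 groups with MIR or PAX5-WT therefore cannot be told apart from a difference between transduction series. Comparisons with PAX5-Δ2-6 are given beside them for the called members and for the adaptor and NF-kB genes named. In alternative fits the numbers were cut into 3 series (1 to 9, 34 to 44 and 45 to 66). A finer cut into 4 series parted 45 to 57 from 58 to 66. The labels name no such series. With 4 series, the PAX5-G183S array numbered 45 is the only link between the last 3 groups and MIR or PAX5-WT. Differences across that link rest on 1 array.

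The line kept the plasma cell profile that its label gives. Of 13 plasma cell markers 7 were measured, among them Pou2af1 at 12.1 to 12.5, Irf4 at 10.4 to 11.3 and Jchain at 11.7 to 13.2 across all arrays. The B cell markers Cd79a, Cr2, Fcer2a, Blk, Cd22 and Ebf1 lay near the array medians, between 3.24 and 4.73, Cd79b was at 9.75 to 10.3, and Ms4a1 (CD20) ranged from 3.23 to 9.73. Ms4a1 rose against MIR by 5.29 ± 0.28 in PAX5-WT, 4.99 ± 0.28 in PAX5-G183S and 4.98 ± 0.28 in PAX5-G183V, and was not called in PAX5-P80R or PAX5-Δ2-6. Of the 7 plasma cell markers against MIR, 3 fell in PAX5-WT (6.43% of all genes called), 3 fell and 1 rose in PAX5-G183S (6.12%) and 4 fell in PAX5-G183V (9.28%). Ly6c1 moved furthest in each, and the marker that rose was Pou2af1, by 0.14 ± 0.04 (limma adjusted p = 0.0139). In PAX5-P80R and PAX5-Δ2-6 none passed the limma test against MIR (unadjusted p under 0.05 for 3 and 0). Averaged over the 7 markers, arrays lay at 11.1 to 11.4 in MIR, 10.7 to 11.2 in PAX5-WT, 10.8 to 11.2 in PAX5-G183S, and from 10.9 in PAX5-G183V. The part of this shift in the changes described here was not tested. Markers of T cells (8 measured), myeloid cells (10), fibroblasts (9) and erythroid cells (6) gave 2 calls over the 5 comparisons with MIR, 1 T cell marker lower in PAX5-G183V and 1 myeloid marker higher in PAX5-P80R. The Pax5 probe set had means between 4.47 in MIR and 5.14 in PAX5-Δ2-6. It passed against MIR in PAX5-P80R, by 0.61 ± 0.17 (SE; limma adjusted p = 0.0248), and PAX5-Δ2-6 stood at 0.80 ± 0.17 (limma adjusted p = 0.218). The labels do not say whether these probes reach the introduced sequence.

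Across 10 comparisons, 7 of the 28 genes passed in at least 1 (Tnfrsf12a, Tnfrsf13b, Tnfrsf13c, Tnfrsf17, Tnfrsf18, Tnfsf10 and Tnfsf14), in 17 pairs of gene and comparison, and 21 passed in none. The share of all genes that passed in at least 1 of the 10 was not counted, so these 7 cannot be set against it. Called means a limma p-value under 0.05 after Benjamini-Hochberg adjustment across the 17097 genes. Against MIR every called member was lower. In PAX5-WT 1 of the 28 (3.57%) was lower, where 6.43% of all genes were called in either direction and 2.84% lower. In PAX5-G183S 2 (7.14%) were lower, where 6.12% of all genes were called and 2.43% lower. In PAX5-G183V 4 (14.3%) were lower, where 9.28% of all genes were called and 3.64% lower. In PAX5-P80R 2 (7.14%) were lower, where 4.72% of all genes were called and 2.47% lower. PAX5-Δ2-6 gave 0 calls among the members, where 0% of all genes were called by limma, and 5 members had an unadjusted p under 0.05. With 28 members, each of these shares rests on 4 genes or fewer, and no test of the family as a whole was made. The median member difference against MIR lay between 0.00 in PAX5-WT and 0.05 in PAX5-Δ2-6, beside 0.00 to 0.01 for all genes.

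Between constructs, PAX5-G183S against PAX5-WT gave 0 calls among members, where 0.076% of all genes were called, and PAX5-G183V against PAX5-WT gave 0, where 0.146% were called. At an unadjusted p under 0.05, limma gave 1 and 4 members in these comparisons. PAX5-P80R against PAX5-WT gave 2 members, both higher, where 6.31% of all genes were called and 2.67% higher. Against PAX5-Δ2-6, whose transductions lie in the same number series, PAX5-P80R gave 1 higher and 1 lower member, where 3.3% of all genes were called. PAX5-G183V gave 1 higher and 3 lower members against PAX5-Δ2-6, where 4.98% of all genes were called. Comparisons that share MIR, PAX5-WT or PAX5-Δ2-6 arrays are not independent of each other.

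**Figure D1:**
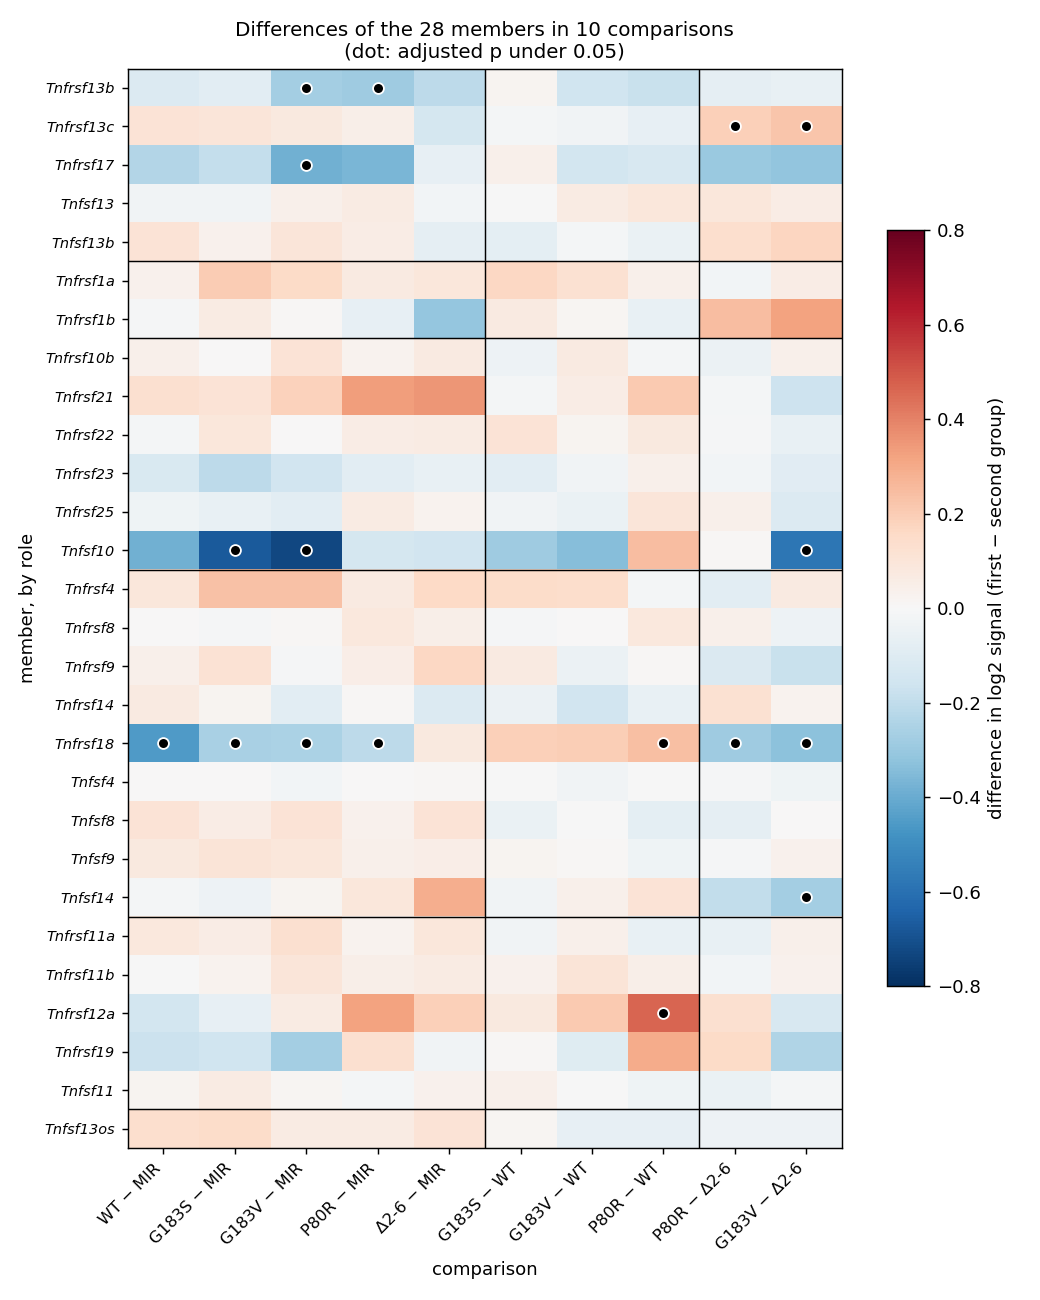
Fitted differences in log2 signal of the 28 members (lines, grouped by role) in the 10 comparisons (columns, first minus second group), with a dot where the adjusted p is under 0.05. Dots fall on 7 of the 28 members, and Tnfrsf18 has a dot in 7 of the 10 columns.

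The promoters of 4 members called in at least 1 comparison are shown. They are the GITR gene Tnfrsf18 and the TRAIL gene Tnfsf10, and the BCMA gene Tnfrsf17 and BAFF-R gene Tnfrsf13c, which stand for the plasma cell and B cell stages. Tnfrsf18 and Tnfsf10 were lower than in MIR with more than 1 construct. Tnfrsf17 was called in PAX5-G183V against MIR alone, and Tnfrsf13c was called against PAX5-Δ2-6 alone. Each is 300 bases of RefSeq sequence on GRCm38.p6, from 250 bases before the start of the gene to 50 after, and capitals mark the motif found.
Tnfrsf18 promoter, chr4:156026072-156026371 (+ strand): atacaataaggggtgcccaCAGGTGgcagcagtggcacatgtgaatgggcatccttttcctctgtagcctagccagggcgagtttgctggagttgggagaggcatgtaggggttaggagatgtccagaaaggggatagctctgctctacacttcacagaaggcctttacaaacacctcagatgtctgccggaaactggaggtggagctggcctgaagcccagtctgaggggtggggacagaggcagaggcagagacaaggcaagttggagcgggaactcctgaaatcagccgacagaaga
Tnfsf10 promoter, chr3:27316827-27317126 (+ strand): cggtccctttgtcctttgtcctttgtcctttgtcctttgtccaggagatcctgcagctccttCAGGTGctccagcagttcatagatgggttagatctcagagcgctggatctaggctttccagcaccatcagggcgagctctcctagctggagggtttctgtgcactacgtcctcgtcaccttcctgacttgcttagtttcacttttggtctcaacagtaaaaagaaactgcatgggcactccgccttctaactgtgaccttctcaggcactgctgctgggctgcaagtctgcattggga
Tnfrsf17 promoter, chr16:11313559-11313858 (+ strand): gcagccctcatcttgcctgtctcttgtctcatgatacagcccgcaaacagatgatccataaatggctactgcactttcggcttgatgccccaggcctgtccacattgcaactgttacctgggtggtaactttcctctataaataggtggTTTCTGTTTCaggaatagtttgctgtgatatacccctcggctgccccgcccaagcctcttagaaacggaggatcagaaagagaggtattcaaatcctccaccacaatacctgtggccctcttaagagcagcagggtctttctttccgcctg
Tnfrsf13c promoter, chr15:82224331-82224630 (- strand): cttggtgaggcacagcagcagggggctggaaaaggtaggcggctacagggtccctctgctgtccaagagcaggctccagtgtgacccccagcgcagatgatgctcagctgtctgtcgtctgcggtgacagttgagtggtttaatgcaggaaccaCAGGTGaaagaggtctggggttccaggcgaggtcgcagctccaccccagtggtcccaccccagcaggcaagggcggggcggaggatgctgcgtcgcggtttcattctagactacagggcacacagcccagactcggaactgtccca
The motif in Tnfrsf18, Tnfsf10 and Tnfrsf13c is CAGGTG, an E-box of the kind that E2A proteins bind, with its first base at -231, -188 and -96 from the start. In Tnfrsf17 it is TTTCTGTTTC at -101, the reverse strand of GAAA and GAAA with 2 bases of any kind between, the core of the element that interferon regulatory factors such as IRF4 bind.

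Promoters were found for 22 of the 28 members, and for all 7 that were called. Searched on both strands, CAGGTG was in 9 of the 22 and in 20.2% of all 32851 promoters of the same length. The interferon response core was in 4 (Tnfrsf14, Tnfrsf17, Tnfrsf1b and Tnfsf13b) and in 3.44% of all promoters. GCGTGAC, a core found in PAX5 sites, was in 0 of the 22 and in 2.09% of all promoters. The ETS motif CCGGAAG was in 3 and in 8.86% of all, and the NF-kB consensus in 2 (Tnfrsf8 and Tnfrsf9) and in 4.51% of all. The Tnfrsf13b window held none of the motifs. Members were counted as genes, with a match in any promoter of the gene, and the shares over all as single promoters. The counts and shares are thus in unlike units. These are matches of letters in the window, and the arrays measure no binding.

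Of the co-stimulatory members, Tnfrsf18 (GITR, a receptor best known on regulatory T cells) showed the change that recurred most, being lower in every construct other than PAX5-Δ2-6. The lowest, median and highest log2 signals were 8.24, 8.71 and 8.81 in MIR and 8.65, 8.69 and 8.78 in PAX5-Δ2-6. They were 7.89, 8.22 and 8.31 in PAX5-WT. PAX5-WT thus held the lowest arrays of the line, although MIR replicates 5 and 6, both of isolation batch 2, reached down to 8.24 and 8.41. The same values were 8.19, 8.33 and 8.48 in PAX5-G183S and 8.22, 8.31 and 8.47 in PAX5-G183V. They were 8.24, 8.46 and 8.50 in PAX5-P80R. The medians of PAX5-G183S, PAX5-G183V and PAX5-P80R thus lay between that of PAX5-WT and those of MIR and PAX5-Δ2-6. Arrays of these 3 groups overlapped PAX5-WT and the 2 low MIR arrays. Every array of these 3 groups was below every PAX5-Δ2-6 array.

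Against MIR, Tnfrsf18 fell by 0.45 ± 0.06 in PAX5-WT (SE, n = 7 and 7; limma adjusted p = 2.4e-07), with 5 of 7 arrays below all MIR arrays. PAX5-G183S differed from MIR by -0.26 ± 0.06 (limma adjusted p = 0.0020) and PAX5-G183V by -0.26 ± 0.06 (limma adjusted p = 0.0020). PAX5-P80R differed by -0.21 ± 0.06 (limma adjusted p = 0.0435), which held in 5 of 13 other settings and was no longer called without any 1 of MIR replicates 1, 2, 3 and 7 or PAX5-P80R replicates 1, 2, 3, 4 and 6 (differences of -0.25 to -0.17 over all arrays left out, limma adjusted p up to 0.171). PAX5-Δ2-6 differed by 0.08 ± 0.06 (95% interval -0.05 to 0.20; limma adjusted p = 0.81). The gene is measured by 1 probe set, and signals of isolation batch 2 were lower over all groups, at -0.16 ± 0.03 (limma adjusted p = 0.00024). On plate 2 alone and with 4 transduction series in place of the isolation batch, the PAX5-G183V difference from MIR was -0.26 ± 0.08 and -0.24 ± 0.13, of like size and no longer called.

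The fall of Tnfrsf18 kept its direction within both isolation batches. In batch 1 alone the differences from MIR were -0.49 in PAX5-WT, -0.33 in PAX5-G183S, -0.35 in PAX5-G183V and -0.22 in PAX5-P80R. In batch 2 alone they were -0.40, -0.20, -0.17 and -0.18 in the same order, none of them called by limma (adjusted p of 0.0570 to 0.451). Against PAX5-Δ2-6, PAX5-G183V was lower, at -0.33 ± 0.06 (limma adjusted p = 0.0005) and PAX5-P80R at -0.29 ± 0.06 (limma adjusted p = 0.0028). PAX5-P80R stood above PAX5-WT by 0.24 ± 0.06 (limma adjusted p = 0.0130), and without PAX5-WT replicate 7 by 0.19 (limma adjusted p = 0.0756). That call also ended with 4 transduction series and with a block for the replicate number. Both octapeptide constructs stood above PAX5-WT, PAX5-G183S by 0.19 ± 0.06 (95% interval 0.08 to 0.31) and PAX5-G183V by 0.20 ± 0.06 (95% interval 0.08 to 0.31), neither of which passed after adjustment over all genes.

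**Figure D2:**
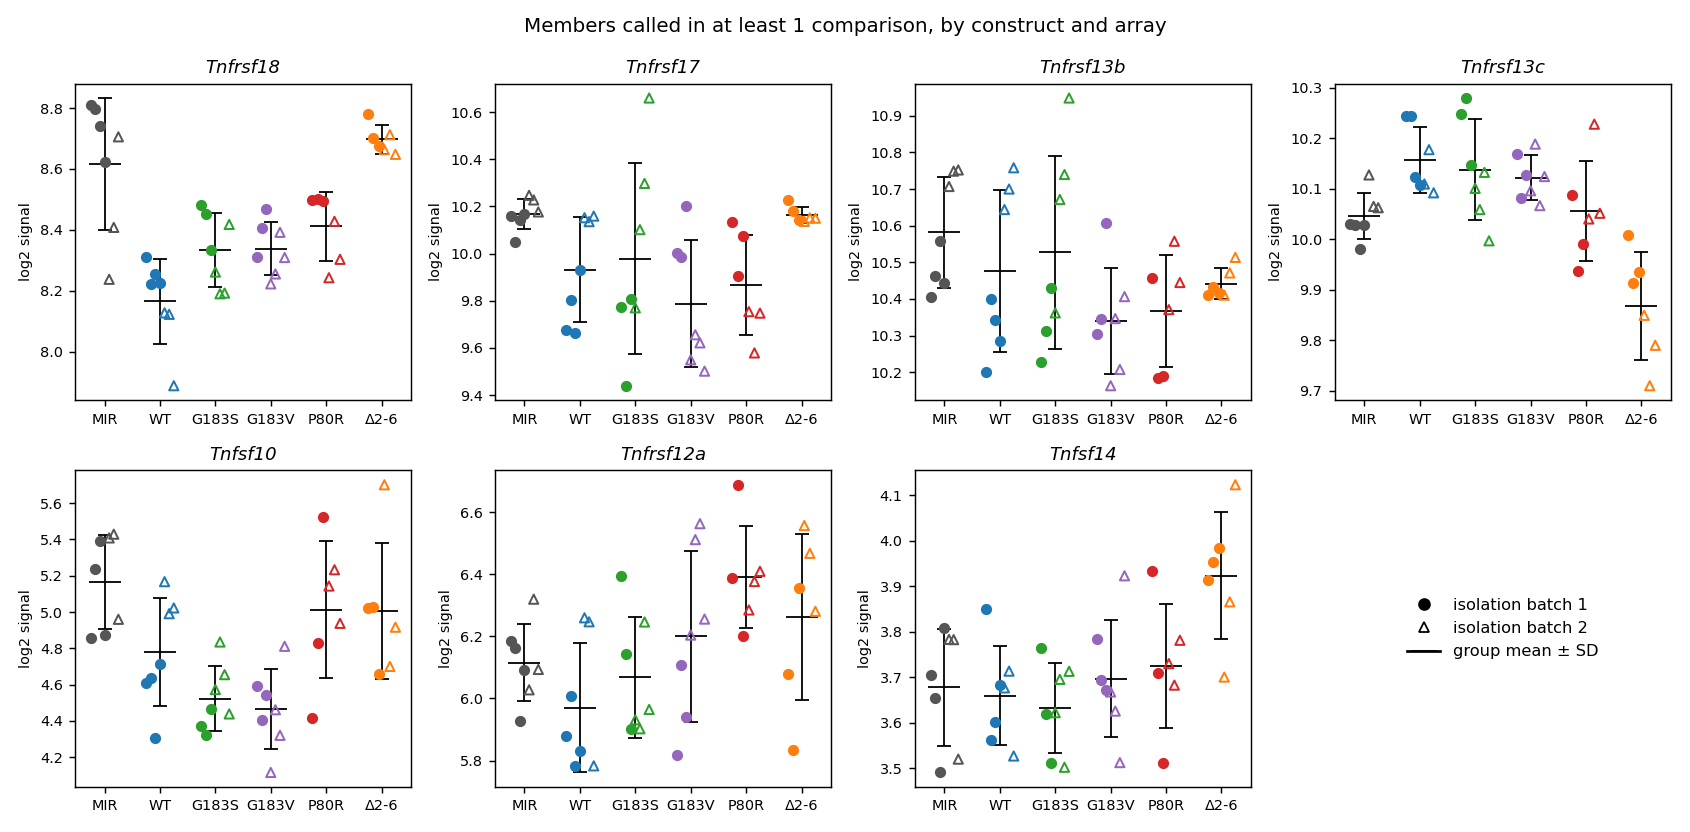
Log2 signal of the 7 called members in every array, by construct, with filled circles for isolation batch 1, open triangles for isolation batch 2, and bars for the group mean ± SD (n = 7 or 6 arrays), each gene on its own axis. Tnfrsf18 runs from 7.89 to 8.31 in PAX5-WT against 8.65 to 8.78 in PAX5-Δ2-6, and Tnfrsf17 splits by isolation batch in PAX5-WT, PAX5-G183V and PAX5-P80R.

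Tnfrsf4 (OX40, a co-stimulatory receptor) is the gene next to Tnfrsf18 on chromosome 4, and it was called in none of the 10 comparisons, with group means of 5.04 to 5.30. Its largest difference was 0.24 ± 0.09 in PAX5-G183S against MIR (limma adjusted p = 0.132). Tnfsf14 (LIGHT, the ligand of the receptor encoded by Tnfrsf14) was dim. Signals (lowest, median, highest) were 3.70, 3.93 and 4.12 in PAX5-Δ2-6 and 3.51, 3.67 and 3.92 in PAX5-G183V, and 3.49, 3.70 and 3.81 in MIR. PAX5-Δ2-6 therefore held the high arrays and the groups overlapped. PAX5-G183V differed from PAX5-Δ2-6 by -0.27 ± 0.07 (limma adjusted p = 0.0211), a call that ended without PAX5-G183V replicate 6 or PAX5-Δ2-6 replicate 6 (differences of -0.34 to -0.23 over all arrays left out) and with the mean of its 2 probe sets (-0.09). Tnfrsf14, Tnfrsf8, Tnfrsf9, Tnfsf4, Tnfsf8 and Tnfsf9, the other co-stimulatory members, had group means between 3.47 and 4.60 and no call.

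Among the death receptors and their ligands, Tnfsf10 (TRAIL, a ligand that can trigger apoptosis) was lower with both octapeptide constructs. In MIR its signals were 4.86 at the lowest, 5.24 at the median and 5.43 at the highest. They were 4.32, 4.47 and 4.84 in PAX5-G183S and 4.12, 4.46 and 4.81 in PAX5-G183V, so every array of both groups lay below every MIR array. PAX5-WT lay between, at 4.31, 4.72 and 5.17. PAX5-P80R (4.42, 5.04 and 5.52) and PAX5-Δ2-6 (4.66, 4.97 and 5.70) overlapped MIR.

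Tnfsf10 fell by 0.67 ± 0.14 in PAX5-G183S (SE, n = 7 and 7; limma adjusted p = 0.0014) and by 0.73 ± 0.14 in PAX5-G183V (limma adjusted p = 0.0004) against MIR. In PAX5-WT the difference was -0.39 ± 0.14 (95% interval -0.67 to -0.10; limma adjusted p = 0.101). PAX5-G183S and PAX5-G183V differed from PAX5-WT by -0.28 ± 0.14 (95% interval -0.57 to 0.00) and -0.34 ± 0.14 (95% interval -0.63 to -0.06), neither called. Within isolation batches 1 and 2 the differences from MIR were -0.70 and -0.63 in PAX5-G183S and -0.57 and -0.83 in PAX5-G183V, of which the last was called by limma (adjusted p = 0.0140). On plate 2 alone the differences were -0.61 ± 0.25 and -0.57 ± 0.25, neither called, and with 4 transduction series PAX5-G183V was at -0.72 ± 0.33, not called. Against PAX5-Δ2-6, PAX5-G183V was lower, at -0.58 ± 0.16 (limma adjusted p = 0.0207), with 6 of 7 arrays below all PAX5-Δ2-6 arrays. That call ended without PAX5-Δ2-6 replicate 4 or PAX5-G183V replicate 6 (-0.66 to -0.45 over all arrays left out; limma adjusted p up to 0.0833). In a fit over probe sets rather than genes, a second probe set of Tnfsf10 gave -0.48 ± 0.09 in PAX5-G183S and -0.50 ± 0.09 in PAX5-G183V against MIR (limma adjusted p = 0.00055 and 0.00024), and -0.47 ± 0.10 in PAX5-G183V against PAX5-Δ2-6 (limma adjusted p = 0.0033). Another, dimmer one gave -0.37 ± 0.11 in PAX5-G183S and -0.36 ± 0.11 in PAX5-G183V against MIR (limma adjusted p = 0.0571 and 0.0489).

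The receptor for TRAIL, Tnfrsf10b, was measured at 3.16 to 3.71 with no call, and the decoy receptors Tnfrsf22 and Tnfrsf23 at 3.96 to 4.54 and 3.52 to 4.32. Tnfrsf25, a death domain receptor best known on T cells, ran from 3.35 to 3.83. Tnfrsf21 (death receptor 6) split by isolation batch in PAX5-Δ2-6. Its PAX5-Δ2-6 signals were 6.49 to 7.03 in isolation batch 1 and 7.44 to 7.67 in isolation batch 2. MIR held 6.78 to 6.94 and 6.74 to 6.82 in the same batches. The difference between PAX5-Δ2-6 and MIR was larger in batch 2 by 0.86 ± 0.18 (SE, n = 3 and 3 in batch 2; limma adjusted p = 0.0293, where 0.211% of all genes were called). Pooled over batches it was 0.35 ± 0.14 (limma adjusted p = 0.536), the largest difference from MIR among the members that were never called.

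In the B cell branch, Tnfrsf17 (BCMA) was lower in some arrays of every construct other than PAX5-Δ2-6, and these arrays parted by isolation batch. Its lowest, median and highest signals were 10.05, 10.17 and 10.25 in MIR and 10.14, 10.15 and 10.23 in PAX5-Δ2-6. Both of these groups were tight. The values spread more widely to 9.66, 9.93 and 10.16 in PAX5-WT and 9.44, 9.81 and 10.66 in PAX5-G183S. They were 9.50, 9.66 and 10.20 in PAX5-G183V and 9.58, 9.83 and 10.13 in PAX5-P80R. Every PAX5-P80R array and 6 of 7 PAX5-G183V arrays lay below every PAX5-Δ2-6 array.

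Pooled over batches, Tnfrsf17 fell by 0.38 ± 0.12 in PAX5-G183V against MIR (SE, n = 7 and 7; limma adjusted p = 0.0439). The call ended without any 1 of the 7 MIR arrays or of PAX5-G183V replicates 4 to 7 (-0.46 to -0.32 over all arrays left out; limma adjusted p up to 0.121). The differences were -0.24 ± 0.12 in PAX5-WT (95% interval -0.49 to 0.01), -0.19 ± 0.12 in PAX5-G183S (95% interval -0.44 to 0.06), -0.37 ± 0.14 in PAX5-P80R (95% interval -0.65 to -0.08) and -0.07 ± 0.14 in PAX5-Δ2-6 (95% interval -0.35 to 0.21), with limma adjusted p of 0.34, 0.44, 0.138 and 0.95. Against PAX5-Δ2-6 they were -0.30 ± 0.13 in PAX5-P80R and -0.32 ± 0.14 in PAX5-G183V (limma adjusted p = 0.30 and 0.21).

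Within isolation batch 1, the 4 PAX5-WT arrays were at 9.66 to 9.93 against 10.05 to 10.17 in MIR, a difference of -0.36 ± 0.08 (limma adjusted p = 0.0095). The 3 PAX5-G183S arrays were at 9.44 to 9.81, lower than MIR, at -0.44 ± 0.08 (limma adjusted p = 0.0051). The 3 PAX5-G183V arrays were at 9.98 to 10.20 and differed from MIR by -0.05 ± 0.08 (limma adjusted p = 0.893). Within isolation batch 2 the order turned. The 3 PAX5-WT arrays were at 10.14 to 10.16 against 10.18 to 10.25 in MIR, a difference of -0.07 ± 0.13 (limma adjusted p = 0.925). The 4 PAX5-G183S arrays were at 9.77 to 10.66 and differed from MIR by -0.03 ± 0.12 (limma adjusted p = 0.950). The 4 PAX5-G183V arrays were at 9.50 to 9.66, lower than MIR, at -0.66 ± 0.12 (limma adjusted p = 0.0026). PAX5-P80R differed from MIR by -0.15 ± 0.09 in batch 1 and by -0.62 ± 0.14 in batch 2 (limma adjusted p = 0.569 and 0.0197). The change of the PAX5-G183V difference from batch 1 to batch 2, -0.61 ± 0.15, was itself called (limma adjusted p = 0.0398, where 1.04% of all genes were called). The same term for PAX5-WT, PAX5-G183S and PAX5-P80R called 0 members each, where 0.0292%, 0% and 0.696% of all genes were called.

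Laid out by transduction number, the arrays of PAX5-WT, PAX5-G183S, PAX5-G183V and PAX5-P80R numbered 36 to 52 were all at 9.93 or below for Tnfrsf17. This window was picked from the same values, so the split is a description and no test. The arrays of these 4 groups with other numbers were at 9.98 or above, with the exception of PAX5-P80R replicate 2 at 9.91. PAX5-G183S replicate 4, with the number 45, stood at 9.77, while its replicate 7, with the number 66, stood at 10.66. MIR arrays with the numbers 34 to 38 stayed at 10.05 or above, and PAX5-Δ2-6 arrays with the numbers 53 to 57 stood at 10.14 to 10.15. Number and construct cannot be told apart here. With 3 series of transduction numbers in place of the isolation batch, the difference from MIR was -0.70 ± 0.10 in PAX5-G183V and -0.73 ± 0.11 in PAX5-P80R (limma adjusted p = 3.2e-06 and 1.9e-05). In that setting PAX5-Δ2-6 was also called, at -0.43 ± 0.11 (limma adjusted p = 0.0255). With 4 series the differences were -0.35 ± 0.19 in PAX5-G183V, -0.36 ± 0.20 in PAX5-P80R and -0.06 ± 0.20 in PAX5-Δ2-6, none called. All of these hang on the PAX5-G183S array numbered 45, the only link to MIR in that setting. Within the shared series, PAX5-G183V was lower than PAX5-Δ2-6, at -0.49 ± 0.13 in batch 2 (limma adjusted p = 0.0468) and differed by -0.04 ± 0.10 in batch 1 (limma adjusted p = 0.905).

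**Figure D3:**
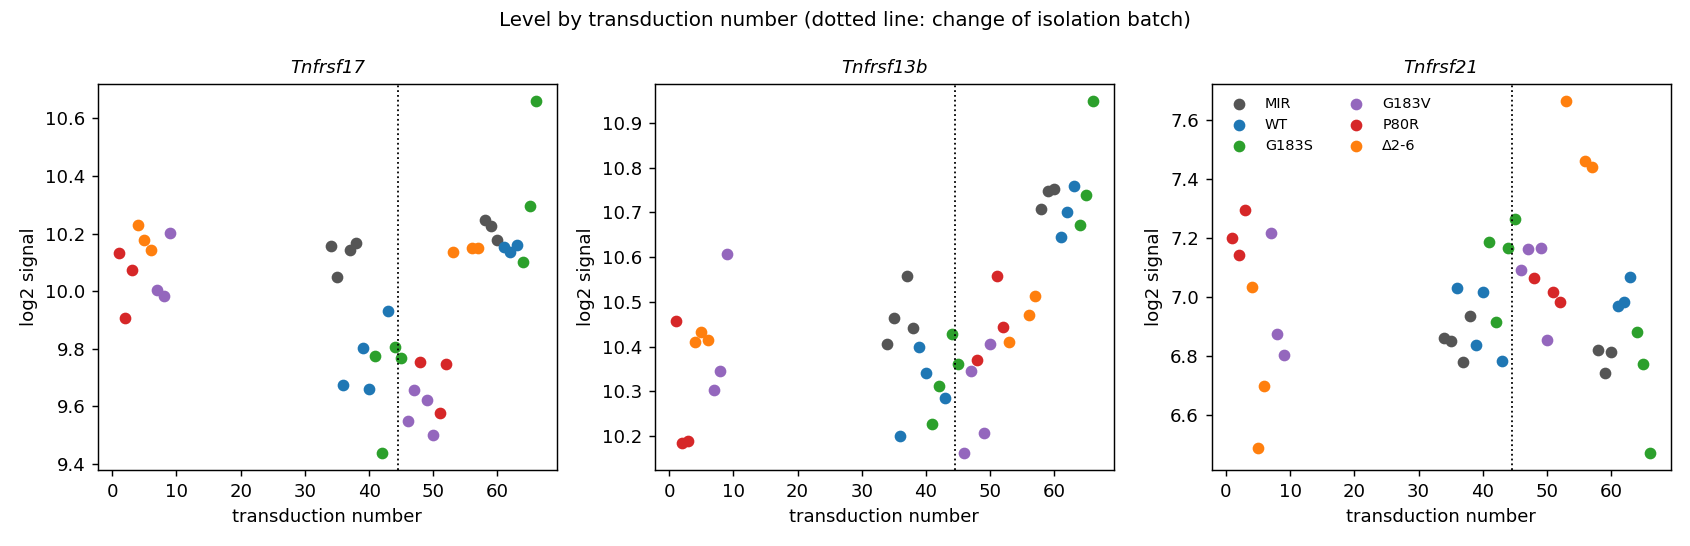
Log2 signal of Tnfrsf17, Tnfrsf13b and Tnfrsf21 in each array against its transduction number, coloured by construct, with a dotted line where the isolation batch changes. Tnfrsf17 lies at 9.50 to 9.66 in the PAX5-G183V arrays of isolation batch 2 and at 10.14 to 10.16 in the PAX5-WT arrays of that batch, and Tnfrsf21 reaches 7.67 in PAX5-Δ2-6.

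Tnfrsf13b (TACI) was lower with PAX5-G183V and PAX5-P80R. From lowest through median to highest, signals were 10.41, 10.56 and 10.75 in MIR, 10.20, 10.40 and 10.76 in PAX5-WT and 10.23, 10.43 and 10.95 in PAX5-G183S. They were 10.16, 10.35 and 10.61 in PAX5-G183V and 10.18, 10.41 and 10.56 in PAX5-P80R. PAX5-Δ2-6 was again tight, at 10.41, 10.42 and 10.51, and all groups overlapped MIR. Against MIR, PAX5-G183V differed by -0.27 ± 0.08 (SE; limma adjusted p = 0.0195) and PAX5-P80R by -0.29 ± 0.09 (limma adjusted p = 0.0439). PAX5-Δ2-6 differed by -0.21 ± 0.09 (95% interval -0.39 to -0.04; limma adjusted p = 0.55), and neither PAX5-G183V (-0.06 ± 0.09) nor PAX5-P80R (-0.07 ± 0.08) was called against PAX5-Δ2-6. The PAX5-G183V call ended without MIR replicate 6 or PAX5-G183V replicate 4 or 6 (-0.33 to -0.22 over all arrays left out). The PAX5-P80R call ended without any 1 of MIR replicates 2, 3, 5, 6 and 7 or PAX5-P80R replicates 2, 3, 4 and 6 (-0.33 to -0.27; limma adjusted p up to 0.0939).

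Tnfrsf13b also moved with the isolation batch, at 0.19 ± 0.05 higher in batch 2 over all groups (limma adjusted p = 0.0020, where 21.2% of all genes were called). MIR stood at 10.41 to 10.56 in batch 1 and at 10.71 to 10.75 in batch 2. The batch also moved Tnfrsf18 and the decoy receptor Tnfrsf22 (0.13 ± 0.04; limma adjusted p = 0.0089), and the plate moved none of the members at an adjusted p under 0.05 (limma), where 2.91% of all genes were called. PAX5-G183V differed from MIR by -0.03 in batch 1 (limma adjusted p = 0.932) and by -0.48 in batch 2 (limma adjusted p = 0.0033). PAX5-P80R differed by -0.25 and -0.37 (limma adjusted p = 0.188 and 0.0656). Transduction numbers of PAX5-G183V and MIR differ in both batches. With 3 series of transduction numbers in place of the isolation batch, Tnfrsf13b differed from MIR by -0.43 ± 0.07 in PAX5-G183V, -0.47 ± 0.08 in PAX5-P80R and -0.40 ± 0.08 in PAX5-Δ2-6 (limma adjusted p = 3.4e-05, 7.6e-05 and 0.0034). With 4 series these differences were -0.12 ± 0.13, -0.14 ± 0.14 and -0.07 ± 0.14, none called.

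Tnfrsf13c (BAFF-R) differed from these in its direction. Its lowest, median and highest signals were 9.98, 10.03 and 10.13 in MIR and 9.71, 9.88 and 10.01 in PAX5-Δ2-6. They were 10.09, 10.12 and 10.24 in PAX5-WT, and PAX5-G183S had a median of 10.13 and reached 10.28. They were 10.07, 10.12 and 10.19 in PAX5-G183V and 9.94, 10.05 and 10.23 in PAX5-P80R. Every PAX5-G183V and PAX5-WT array was thus above every PAX5-Δ2-6 array, while MIR overlapped all groups. PAX5-G183V was higher than PAX5-Δ2-6 by 0.22 ± 0.05 (limma adjusted p = 0.0033) and PAX5-P80R by 0.19 ± 0.05 (limma adjusted p = 0.0165). In isolation batch 1 alone these were 0.13 and 0.05 (limma adjusted p = 0.412 and 0.834), and in batch 2 alone 0.32 and 0.32 (limma adjusted p = 0.0115 and 0.0121). The PAX5-P80R call ended without PAX5-P80R replicate 5 or PAX5-Δ2-6 replicate 5 (0.15 to 0.22 over all arrays left out; limma adjusted p up to 0.0824). On plate 2 alone neither PAX5-G183V (0.24 ± 0.07) nor PAX5-P80R (0.19 ± 0.05) was called against PAX5-Δ2-6 (limma adjusted p = 0.0570 and 0.0746). Both calls also ended with only the groups compared in the fit. Over both batches nothing was called against MIR for Tnfrsf13c, while in batch 1 alone PAX5-G183S was higher by 0.20 ± 0.05 (limma adjusted p = 0.0453; -0.01 ± 0.06 in batch 2). PAX5-WT was at 0.11 ± 0.04 (95% interval 0.02 to 0.20; limma adjusted p = 0.156) and PAX5-Δ2-6 at -0.14 ± 0.05 (95% interval -0.24 to -0.04; limma adjusted p = 0.50).

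The ligands of these receptors were dim. Tnfsf13 (APRIL) had group means of 3.77 to 3.87 and Tnfsf13b (BAFF) of 3.79 to 3.92, both below the array medians. Their largest differences were 0.09 ± 0.09 for Tnfsf13 in PAX5-P80R against PAX5-WT and 0.17 ± 0.11 for Tnfsf13b in PAX5-G183V against PAX5-Δ2-6, neither called (limma adjusted p = 0.664 and 0.471). A further probe set that names Tnfsfm13, Tnfsf13 and Tnfsf12 together was kept apart, and it was not called in any of the 10 comparisons (0.07 ± 0.08 in PAX5-WT against MIR). Tnfsf13os, whose name marks it as antisense to Tnfsf13, had group means of 4.14 to 4.32 and no call.

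Of the bone and tissue members, Tnfrsf12a (Fn14, the receptor of TWEAK) was higher with PAX5-P80R than with PAX5-WT. Signals were 6.20, 6.38 and 6.69 (lowest, median, highest) in PAX5-P80R and 5.78, 5.88 and 6.26 in PAX5-WT. MIR lay at 5.93, 6.09 and 6.32 and PAX5-Δ2-6 at 5.83, 6.32 and 6.56. Of the 6 PAX5-P80R arrays 5 were above all PAX5-WT arrays, and MIR and PAX5-Δ2-6 overlapped both groups. PAX5-P80R exceeded PAX5-WT by 0.47 ± 0.11 (SE, n = 6 and 7; limma adjusted p = 0.0075), and a second probe set gave 0.45 ± 0.12 in the fit over probe sets (limma adjusted p = 0.0238). With 4 transduction series the difference was larger and its error wider, at 0.84 ± 0.24, and not called (limma adjusted p = 0.212). With a block for the replicate number it was not called either. The difference was 0.63 in isolation batch 1 and 0.29 in batch 2 (limma adjusted p = 0.0134 and 0.328). PAX5-P80R against MIR was 0.32 ± 0.11 (95% interval 0.09 to 0.55) and against PAX5-Δ2-6 0.13 ± 0.11 (95% interval -0.09 to 0.35), neither called. PAX5-WT itself was at -0.15 ± 0.10 from MIR (95% interval -0.35 to 0.06), not called.

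The remaining bone and tissue members were not called. Tnfrsf11a (RANK) had group means of 4.75 to 4.87, Tnfrsf11b (osteoprotegerin, a soluble decoy) of 3.65 to 3.77 and Tnfsf11 (RANK ligand) of 3.69 to 3.83. Tnfrsf19 was the most variable of them, with 0.30 ± 0.11 in PAX5-P80R against PAX5-WT (limma adjusted p = 0.124). The TNF receptors proper, Tnfrsf1a and Tnfrsf1b, had group means of 5.95 to 6.15 and 4.75 to 5.04. Tnfrsf1b was at 0.32 ± 0.14 in PAX5-G183V against PAX5-Δ2-6 (limma adjusted p = 0.227), and Tnfrsf1a at 0.20 ± 0.10 in PAX5-G183S against MIR (limma adjusted p = 0.268). Only 8 of the 28 members had a group mean above 5.24, the array median plus 1: Tnfrsf12a, Tnfrsf13b, Tnfrsf13c, Tnfrsf17, Tnfrsf18, Tnfrsf1a, Tnfrsf21 and Tnfrsf4. Of these 8 bright members 5 were called in a comparison, and of the other 20 the dim Tnfsf10 and Tnfsf14 were. The shares of all bright and all dim genes called in any comparison were not counted, so nothing about the members follows from this.

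Several members sit beside each other in the genome. Tnfrsf4 and Tnfrsf18 are neighbours on chromosome 4, as are Tnfrsf1b and Tnfrsf8, and Tnfrsf22 and Tnfrsf23 are neighbours on chromosome 7. On chromosome 17 Cd70 lies between Tnfsf9 and Tnfsf14. Of these genes only Tnfrsf18 and Tnfsf14 were called in any of the 10 comparisons. From 0% to 9.28% of all genes were called per comparison, so nothing about neighbours follows from this.

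Superfamily genes without the prefix were followed in a list of 15, all measured. Only Ltb, a lymphotoxin subunit made by B cells, passed in any of the 10 comparisons. Signals were 4.36, 4.64 and 4.81 in MIR and 4.76, 5.07 and 5.20 (lowest, median, highest) in PAX5-G183S, with 6 of 7 arrays above all MIR arrays. The difference was 0.41 ± 0.10 (limma adjusted p = 0.0081), and 0.42 and 0.39 within isolation batches 1 and 2, neither called. In PAX5-WT it was 0.30 ± 0.10 (limma adjusted p = 0.0817).

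The adaptors and death signalling genes that receptors act through were followed in a list of 21, of which 19 were measured and Traf3 and Ripk1 were not analysed here. Against MIR, 4 were higher in PAX5-WT (6.43% of all genes called), 4 higher and 2 lower in PAX5-G183S (6.12%), 2 higher and 1 lower in PAX5-G183V (9.28%) and 1 higher in PAX5-P80R (4.72%). PAX5-Δ2-6 gave 0 (limma, 0 with an unadjusted p under 0.05). The median difference of the list was 0.08 in PAX5-WT, 0.15 in PAX5-G183S, 0.10 in PAX5-G183V, 0.04 in PAX5-P80R and -0.07 in PAX5-Δ2-6, beside 0.00 to 0.01 over all genes. Traf5, an adaptor for several co-stimulatory receptors, rose furthest. The lowest, median and highest Traf5 signals were 6.29, 6.89 and 7.35 in MIR and 6.61, 6.69 and 7.00 in PAX5-Δ2-6, against 8.31, 8.38 and 8.66 in PAX5-WT. PAX5-P80R stood between, at 7.51, 7.67 and 7.82. All PAX5-P80R arrays were above all MIR arrays and below all PAX5-WT arrays. The rise over MIR was 1.64 ± 0.07 in PAX5-WT (limma adjusted p = 2.5e-19), 1.21 ± 0.07 in PAX5-G183S, 1.37 ± 0.07 in PAX5-G183V and 0.82 ± 0.08 in PAX5-P80R (limma adjusted p = 3.8e-09). Against PAX5-Δ2-6 the differences were 1.49 ± 0.08 in PAX5-G183V and 0.94 ± 0.08 in PAX5-P80R (limma adjusted p = 2.9e-16 and 5.1e-11). Every PAX5-G183S array was below every PAX5-WT array, at -0.42 ± 0.07 (limma adjusted p = 0.0028, where 0.076% of all genes were called). PAX5-G183V differed from PAX5-WT by -0.27 ± 0.07, not called (limma adjusted p = 0.117).

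Other adaptors moved less. Tnfaip3 (A20, an inhibitor of NF-kB signalling) was higher in PAX5-WT than in MIR by 0.33 ± 0.09 (limma adjusted p = 0.0122) and lower in PAX5-P80R than in PAX5-WT, at -0.40 ± 0.10 (limma adjusted p = 0.0076), with all 6 PAX5-P80R arrays below all PAX5-WT arrays. Its signals were near the array medians, at 3.70 to 4.07 in MIR and 4.05 to 4.29 in PAX5-WT. PAX5-P80R differed from PAX5-Δ2-6 in Tnfaip3 by 0.05 ± 0.09, not called (limma adjusted p = 0.902). Rbck1, a subunit of the linear ubiquitin ligase that acts on TNF receptor complexes, was higher than in MIR by 0.27 ± 0.05 in PAX5-WT, 0.19 ± 0.05 in PAX5-G183S and 0.20 ± 0.05 in PAX5-G183V (limma adjusted p = 0.00026, 0.0140 and 0.0074). PAX5-G183V exceeded PAX5-Δ2-6 in Rbck1 by 0.25 ± 0.06 (limma adjusted p = 0.0049). Cyld, a deubiquitinase that opposes NF-kB, was lower in PAX5-P80R than in PAX5-WT, at -0.52 ± 0.13 (limma adjusted p = 0.0077). Only 3 of 6 PAX5-P80R arrays (4.72 to 5.01) were below all PAX5-WT arrays (4.80 to 5.88). The highest PAX5-WT arrays were at 5.88 and 5.65, and the next at 5.22. PAX5-P80R differed in Cyld from MIR by -0.21 ± 0.13 and from PAX5-Δ2-6 by -0.05 ± 0.12, neither called (limma adjusted p = 0.468 and 0.927). The 2 genes that were lower in PAX5-G183S against MIR were Tank at -0.27 ± 0.08 and Casp8 at -0.16 ± 0.05.

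The NF-kB kinases, subunits and inhibitors were followed in a list of 18, of which 16 were measured and Chuk and Nfkb1 were not analysed here. Against MIR, 1 was higher in PAX5-WT (6.43% of all genes called), 3 in PAX5-G183S (6.12%), 4 in PAX5-G183V (9.28%) and 2 in PAX5-P80R (4.72%), none was lower in these 4 comparisons, and PAX5-Δ2-6 gave 0 (limma; 1 with an unadjusted p under 0.05). Relb, the subunit of the non-canonical pathway that BAFF-R feeds, had its highest group mean in PAX5-P80R. Its lowest, median and highest signals were 4.71, 4.88 and 5.15 in MIR, 4.81, 5.14 and 5.23 in PAX5-WT and 5.12, 5.41 and 5.75 in PAX5-P80R. PAX5-Δ2-6 lay at 4.88, 5.03 and 5.08, below every PAX5-P80R array. PAX5-P80R exceeded MIR by 0.55 ± 0.09, PAX5-WT by 0.34 ± 0.09 and PAX5-Δ2-6 by 0.42 ± 0.09 (limma adjusted p = 0.00012, 0.0161 and 0.0029). Within isolation batches 1 and 2 the PAX5-P80R difference from PAX5-Δ2-6 was 0.34 and 0.49. Relb was also higher than in MIR in PAX5-G183V (0.35 ± 0.08; limma adjusted p = 0.0033) and PAX5-G183S (0.26 ± 0.08; limma adjusted p = 0.0479), while PAX5-WT was at 0.20 ± 0.08 (limma adjusted p = 0.158). PAX5-G183V differed from PAX5-Δ2-6 in Relb by 0.22 ± 0.09, not called (limma adjusted p = 0.184). Nfkbib and Nfkbia, inhibitors that hold NF-kB in the cytoplasm, were higher in PAX5-P80R than in PAX5-WT by 0.24 ± 0.07 and 0.29 ± 0.08 (limma adjusted p = 0.0365 and 0.0209). In PAX5-P80R against PAX5-Δ2-6 the same genes were at 0.22 ± 0.07 and 0.12 ± 0.08, neither called (limma adjusted p = 0.0730 and 0.553). Bcl10, which links antigen receptors to NF-kB, was higher than in MIR in PAX5-WT (0.19 ± 0.05), PAX5-G183S (0.24 ± 0.05) and PAX5-G183V (0.23 ± 0.05). PAX5-G183V differed from PAX5-Δ2-6 in Bcl10 by 0.16 ± 0.06, not called (limma adjusted p = 0.0874).

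**Figure D4:**
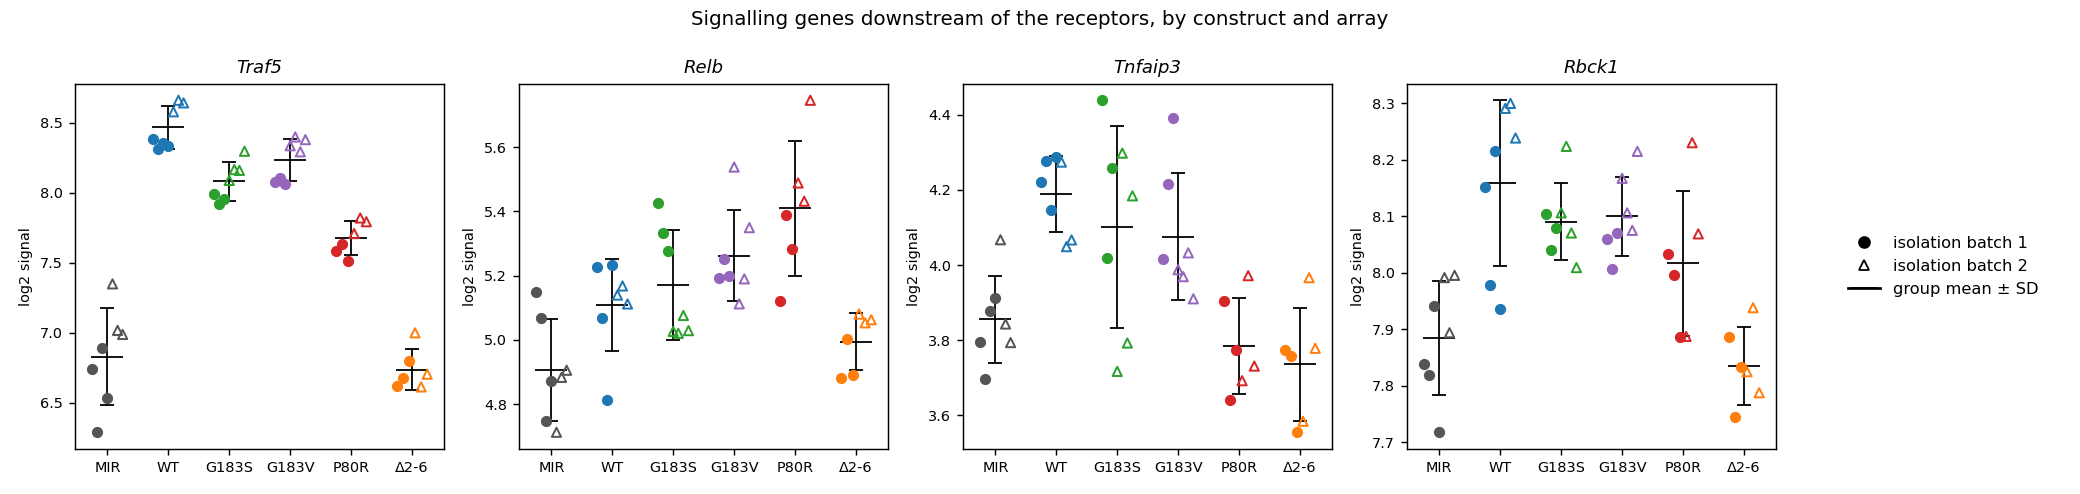
Log2 signal of the adaptor Traf5, the NF-kB subunit Relb, the inhibitor Tnfaip3 and the ubiquitin ligase subunit Rbck1 in every array, by construct, with filled circles for isolation batch 1, open triangles for isolation batch 2 and bars for the group mean ± SD. Traf5 steps from 6.29 to 7.35 in MIR through 7.51 to 7.82 in PAX5-P80R to 8.31 to 8.66 in PAX5-WT, and Relb reaches 5.75 in PAX5-P80R.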

How the data were processed

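The 40 arrays measured RNA of J558LuM cells (Trizol extracts, 3' IVT labelling per the labels). The authors deposited log2 values, which the submitters' processing notes attribute to RMA without a version or settings, and no further normalization was applied. RMA can shrink differences of dim probe sets, and precision rests on how many arrays a group has (median SE over all genes 0.08 for PAX5-WT against MIR).

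The annotation gives 1 symbol for 28898 of 45141 probe sets, more than 1 for 551 and no symbol for 15692, and the brightest stood for each of 17097 genes. Labels supplied group, plate, isolation batch and transduction number. A linear model of the 6 groups, plate and isolation batch was fitted to all arrays (limma 3.58.1, R 4.3.3), with Benjamini-Hochberg adjustment across genes in each of 10 comparisons. Whether each of the 5 differences from MIR changed with isolation batch was tested by an interaction term. The closest pair of arrays had r = 0.997 and 0 pairs were identical. Deviations of same-numbered replicates correlated with a median r of 0.11 over 96 pairs (lowest -0.16; -0.02 for other numbers). Since not every pair correlated and the labels name no shared source, no block was used in the fit. Plate and isolation batch were not removed from these deviations, so they cannot settle whether the arrays were paired. Results with a block for the replicate number are given below.

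All members are accounted for. Full values are given for those called and for the B cell branch, and up to 4 called genes with the largest change per other list. The members and the 9 lists (113 genes, 98 measured) were chosen with earlier results of these data known. Promoters are RefSeq sequences on GRCm38.p6, searched for 5 motifs, and gene neighbours come from RefSeq.

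Tested on simulated data, the fit found 100% of 50 genes altered 1.5-fold and 46% of 50 altered 1.2-fold in PAX5-WT against MIR, and 94% and 36% in PAX5-P80R against MIR. Alternatives were no batch terms, single batches or plates, transduction series, a replicate block, only the compared groups, the mean of probe sets, renewed quantile normalization, centring, leaving out dim genes, limma's trend and robust options, and each array left out. Those for the interaction term were chosen after seeing the data.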

Additional observations from a re-analysis of the deposited data

Results flagged for a closer look

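In 12 of 168 sets of arrays (a member in a construct; 7.14%) 1 array stood apart from the others of its group by Dixon's criterion, which chance gives in about 1 in 20. 3 of the 12 were in PAX5-G183V replicate 5 (transduction 47): Tnfrsf1a at 5.86 against 6.10 to 6.18 in the others, Tnfsf13b at 3.43 against 3.92 to 4.25 and Tnfsf4 at 4.16 against 3.76 to 3.90. PAX5-Δ2-6 replicate 1 stood apart for Tnfrsf23, at 4.32 against 3.58 to 3.86, and for Tnfsf8, at 4.29 against 3.82 to 3.99. Tnfsf10 reached 5.70 in PAX5-Δ2-6 replicate 4 against 4.66 to 5.03 in the others, the array whose omission ends its call in PAX5-G183V against PAX5-Δ2-6. In PAX5-WT, Tnfrsf25 was at 3.83 in replicate 4, Tnfsf4 at 3.72 in replicate 2 and Tnfsf8 at 4.14 in replicate 1. The others were Tnfrsf10b at 3.61 in PAX5-G183S replicate 7, Tnfrsf11b at 3.51 in PAX5-G183V replicate 1 and Tnfsf13 at 4.36 in PAX5-P80R replicate 2.

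The difference from MIR itself changed between isolation batches in 2 members. For Tnfrsf17 in PAX5-G183V it was lower in batch 2 than in batch 1, at -0.61 ± 0.15 (limma adjusted p = 0.0398), with 4 of 4 PAX5-G183V arrays of batch 2 below all MIR arrays. For Tnfrsf21 in PAX5-Δ2-6 it was higher in batch 2 by 0.86 ± 0.18 (limma adjusted p = 0.0293), with 3 of 3 PAX5-Δ2-6 arrays of batch 2 above all MIR arrays. The part of the transduction series in both was not tested.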

How the results depend on the processing

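None of the results called in the main fit reversed its sign under any alternative. Results not called there could turn between isolation batches 1 and 2. Against PAX5-WT, Tnfrsf17 was at 0.31 and -0.59 in PAX5-G183V (limma adjusted p = 0.188 and 0.0228). In PAX5-P80R it was at 0.21 and -0.55 (limma adjusted p = 0.254 and 0.0375). Tnfrsf13b in PAX5-G183V was at 0.13 and -0.44 against PAX5-WT (limma adjusted p = 0.674 and 0.0225). The shares of all genes called in the alternative settings are not given here, so nothing about the members follows from a change of count. Members called were 1, 2, 4, 2 and 0 against MIR for PAX5-WT, PAX5-G183S, PAX5-G183V, PAX5-P80R and PAX5-Δ2-6. In isolation batch 1 alone they were 2 for PAX5-WT, 1 for PAX5-G183V and 0 for PAX5-P80R, and in isolation batch 2 alone 0 for PAX5-WT, 0 for PAX5-G183S, 1 for PAX5-P80R and 1 for PAX5-Δ2-6. On plate 2 alone they were 1 for PAX5-G183S, 0 for PAX5-G183V and 0 for PAX5-P80R. Without batch terms they were 2 for PAX5-G183V and 0 for PAX5-P80R. With 3 transduction series in place of the isolation batch they were 4 for PAX5-P80R and 3 for PAX5-Δ2-6, and with 4 series 0 for PAX5-G183V and 0 for PAX5-P80R, where the median SE of all genes rose to 0.175 and 0.185. With only the groups compared in the fit they were 3 for PAX5-WT, 1 for PAX5-G183S and 1 for PAX5-P80R. The mean of all probe sets gave 2 for PAX5-WT and the filter on dim genes 1 for PAX5-G183S.

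Against PAX5-WT, PAX5-G183V (0 called) gave 2 in isolation batch 2 alone and 3 with 3 series, and PAX5-P80R (2 called) gave 1 in isolation batch 2 alone, 4 with 3 series and 0 with 4 series. Against PAX5-Δ2-6, PAX5-P80R (2 called) gave 0 in isolation batch 1 alone and 1 on plate 2 alone, and PAX5-G183V (4 called) gave 1 in isolation batch 1 alone, 1 on plate 2 alone, 1 with only the groups compared and 2 with dim genes left out. With the replicate block, PAX5-P80R gave 0 calls against MIR and 0 against PAX5-WT, where Tnfrsf12a was at 0.41 ± 0.16 and Tnfrsf18 at 0.21 ± 0.09 against PAX5-WT, and the other counts stayed within 1.5 times; 21 of 40 arrays correlated best with an array of their own number. The isolation batch by group term called 2 members, and 1 without the plate term. The causes were not tested.

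Leaving out each array in turn gave 1 to 1 calls for PAX5-WT, 2 to 2 for PAX5-G183S, 2 to 5 for PAX5-G183V, 0 to 2 for PAX5-P80R and 0 to 0 for PAX5-Δ2-6 against MIR. It gave 0 to 0 for PAX5-G183S, 0 to 0 for PAX5-G183V and 1 to 2 for PAX5-P80R against PAX5-WT, 1 to 2 for PAX5-P80R and 2 to 4 for PAX5-G183V against PAX5-Δ2-6, and 0 to 4 for the isolation batch by group term. On simulated data, 28 to 50% of 1.2-fold changes were found across the comparisons between groups.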
